A study of Sus scrofa with 32 samples.

Results

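The cells described here were T lymphocytes recovered from the ileum of 2 pigs, compared between tissue that held Peyer's patches and tissue that held none. They were chosen on measured values. A barcode was kept when it passed a minimum UMI count, held at least 550 genes and had no more than 1 in 8 UMIs from mitochondrial genes, and it was counted as a T cell when CD3E, which encodes a chain of the T cell receptor complex, had at least 1 UMI, the B cell genes CD79B and MS4A1 and the epithelial gene EPCAM had 0, and JCHAIN of antibody-secreting cells held under 0.5% of the UMIs. The rule gave 9035 T cells of 21893 cells kept in the 4 libraries compared, and 35386 cells were kept in all 6 ileal libraries of the study.

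T cells of the gut wall fall into residents of the epithelium and lamina propria and cells of organised lymphoid tissue. In the pig ileum the study placed most CD8 and γδ T cells in the epithelium. It placed most CD4 T cells in the lamina propria. Peyer's patches are lymphoid follicles in which naive lymphocytes enter from the blood, meet antigen and leave again through the lymph. Follicular helper T cells, which carry CD4, provide help to B cells in their germinal centres.

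The distal ileum of mixed-breed 7-week-old pigs was freed of its muscle layer and dissected into a PP sample, a non-PP sample and a whole ileum sample from each pig, labelled pig 1 and pig 2 here. Epithelial and digested fractions were combined, lymphocytes were enriched, dead cells were removed and 3' libraries were made on the 10X Chromium system (v2 chemistry). Neither pig had a treatment or genetic change in the labels, and PP and non-PP differed in the dissection alone. The 4 sequencing runs of a library were pooled in 1 matrix, which left 2 libraries per dissection from the same 2 animals. Without the pig as a term in the fit, the p-values measured the spread between these 2 pigs. With the pig as a term, called a block below, that spread was taken out. The p-values then measured what was left in the same libraries.

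The 4 libraries held 21134542 to 40111934 UMIs, and their T cells had median counts of 2494 to 2699 UMIs. By library, 1703 and 1717 cells of PP in pigs 1 and 2 were T cells (23.2% and 25.0% of cells kept), against 3112 and 2503 cells of non-PP (79.6% and 66.3%). Dissection, lymphocyte enrichment, the removal of poor cells and the exclusion of CD3E cells with a marker of another lineage cannot be told apart in these shares. More such cells were excluded in PP, as counted below. T cell barcodes shared between 2 of these libraries numbered 3 to 11 per pair. Ambient RNA was estimated at 5.56% to 10.1% of the UMIs of T cells, as the median over markers of other cell types. For some genes in CD4 T cells this estimate was too high, as given below. The library labelled whole ileum of pig 1 held 38.1 CPM of Y-linked genes against 0 CPM in both other libraries of the female pig 1, so whole ileum served only for levels and for 1 alternative fit.

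Other T cell genes that the rule did not use were detected in all 4 libraries. CD3G, another chain of the receptor complex, was at 1113 and 1214 CPM in PP of pigs 1 and 2 and 1473 and 1481 CPM in non-PP, CD3D at 421 and 380.2 CPM in PP against 522 and 469 CPM in non-PP, and CD2, an adhesion receptor of T cells, at 685 and 745 CPM in PP against 708 and 881 CPM in non-PP. CD3E itself, which chose the cells, stood at 1366 and 1552 CPM in PP and 1962 and 1632 CPM in non-PP. Just inside the threshold, 16.1% and 16.2% of the T cells of PP and 10.3% and 14.4% of those of non-PP had a single CD3E UMI. Just outside it, 1077 and 687 cells of PP and 293 and 99 cells of non-PP had CD3E together with a marker of another lineage. Innate lymphoid cells were kept out only through CD3E.

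Raw UMI counts were summed over the T cells of each library and compared between PP and non-PP in 1 edgeR fit across 9625 genes, with levels given as TMM-scaled CPM, which corrects for library size and composition, and differences as log2 fold changes of PP over non-PP with their standard errors. The T cells of PP had more RNA of genes for lymphotoxin, lymph node homing and exit, and B cell help, and the T cells of non-PP had more of genes for cytotoxic granules. At an adjusted p below 0.05, 29 genes were higher in PP (0.301% of genes tested) and 7 were lower (0.0727%). At an unadjusted p below 0.05 there were 1059 of the 9625 genes. This is the background for the unadjusted counts of list members in all T cells given below. With the pig as a block, which the shared animals of the 4 libraries allowed, 492 were higher (5.11%) and 447 lower (4.64%), and these included all 36 genes of the first fit. DESeq2 called 132 and 84 genes, the 36 among them. With ambient counts subtracted and no block, 10 of the 36 were called again and 5 were not tested. Calls below were made by edgeR without the block where nothing else is said. Without PP of pig 1 or without PP of pig 2 no gene was called (smallest adjusted p 0.0538 and 0.0564), with 255 and 412 genes higher and lower at an unadjusted p below 0.05 in the first case and 375 and 284 in the second. Without non-PP of pig 1 the counts were 133 and 64, and without non-PP of pig 2 they were 146 and 120. In sums of cells, more cells of a kind and more RNA per cell cannot be told apart.

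Markers of other cells moved with the dissection inside the T cell sums. The summed level of 10 B cell markers was 40.2 and 41.2 CPM in PP and 7.04 and 8.08 CPM in non-PP, where PAX5 was at 0 in both libraries and FCRL1 at 0 in pig 1. The 13 epithelial markers summed to 80.8 and 23.0 CPM in PP and 266 and 70.9 CPM in non-PP, with none at 0 and a median of -1.53 over 11 tested. The 9 myeloid markers summed to 531 and 256 CPM in PP and 164 and 492 CPM in non-PP, the 7 of antibody-secreting cells to 164 and 155 against 123 and 172 CPM, and the 8 stromal and endothelial markers to 61.4 and 33.6 against 24.1 and 94.6 CPM. The red cell genes HBB and ALAS2 summed to 13.2 and 6.84 against 286 and 65.7 CPM. Across genes, the log2 fold changes of T cells and the log2 ratios of the ambient profiles of the same libraries had a Pearson correlation of 0.354 (9625 genes, which are not independent). The part of free RNA from these cells in the results was not tested apart from the ambient-subtracted values given below.

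LTB encodes lymphotoxin beta, a membrane cytokine that builds lymphoid tissue. It stood at 369.6 and 362 CPM in PP of pigs 1 and 2 and 40.7 and 38.2 CPM in non-PP, and the dissections did not overlap. The T cells of PP thus had 9.43-fold more LTB RNA (log2 fold change 3.24 ± 0.14, adjusted p = 0.00435). Its relative LTA, lymphotoxin alpha, was at 10.7 and 6.86 CPM in PP against 0.968 and 0.741 CPM in non-PP and in edgeR was called only with the pig as a block (log2 fold change 3.36, adjusted p = 0.0540 without and 1.34e-04 with the block), while DESeq2 called it without one. With ambient counts subtracted and no block, LTB was called again (adjusted p = 0.00769).

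Genes of naive and recirculating T cells were higher in PP. All 11 members of that list had positive log2 fold changes, with a median of 1.10 against 0.00488 over all genes tested. Of these, 3 passed the test, 5 in DESeq2, and 10 with the pig as a block. CCR7, the receptor that guides lymphocytes into lymphoid tissue, was at 77.5 and 88.8 CPM in PP of pigs 1 and 2 and 4.73 and 11.2 CPM in non-PP (log2 fold change 3.41 ± 0.39, adjusted p = 0.0483). S1PR1, the receptor that lets lymphocytes leave tissue for lymph, was at 62.2 and 55.8 CPM in PP against 10.9 and 13.3 CPM in non-PP (log2 fold change 2.31 ± 0.17, adjusted p = 0.0202), and KLF2, the transcription factor that drives its expression, at 45.2 and 43.3 CPM in PP against 7.96 and 10.8 CPM in non-PP (log2 fold change 2.27 ± 0.20, adjusted p = 0.0294). The libraries of the dissections did not overlap for these 3 genes, and all 3 were lower in both non-PP libraries.

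Other members of this list were called in edgeR only with the pig as a block, and DESeq2 called TCF7 and LEF1 without one. LEF1, a transcription factor of naive T cells, was at 33.8 and 41.0 CPM in PP against 5.81 and 9.89 CPM in non-PP (log2 fold change 2.28, adjusted p = 0.0619 without and 1.35e-05 with the block). TCF7, its partner, was at 202 and 227 CPM in PP against 123 and 139.9 CPM in non-PP (log2 fold change 0.73, adjusted p = 0.137 without and 9.71e-04 with the block). IL7R, the receptor for a survival cytokine, stood at 64.5 and 68.6 CPM in PP against 34.4 and 54.1 CPM in non-PP, with non-PP of pig 2 closest to PP. CD27 did not pass in either fit. B cells share CCR7, KLF2 and LTB, and their markers moved in the same direction. With ambient counts subtracted and no block, CCR7 (adjusted p = 0.133), S1PR1 (0.0501) and KLF2 (0.165) were no longer called. After ambient counts were subtracted and with the pig as a block, LTB, CCR7, S1PR1, KLF2, LEF1 and TCF7 were called again and higher in PP.

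**Figure D1:**
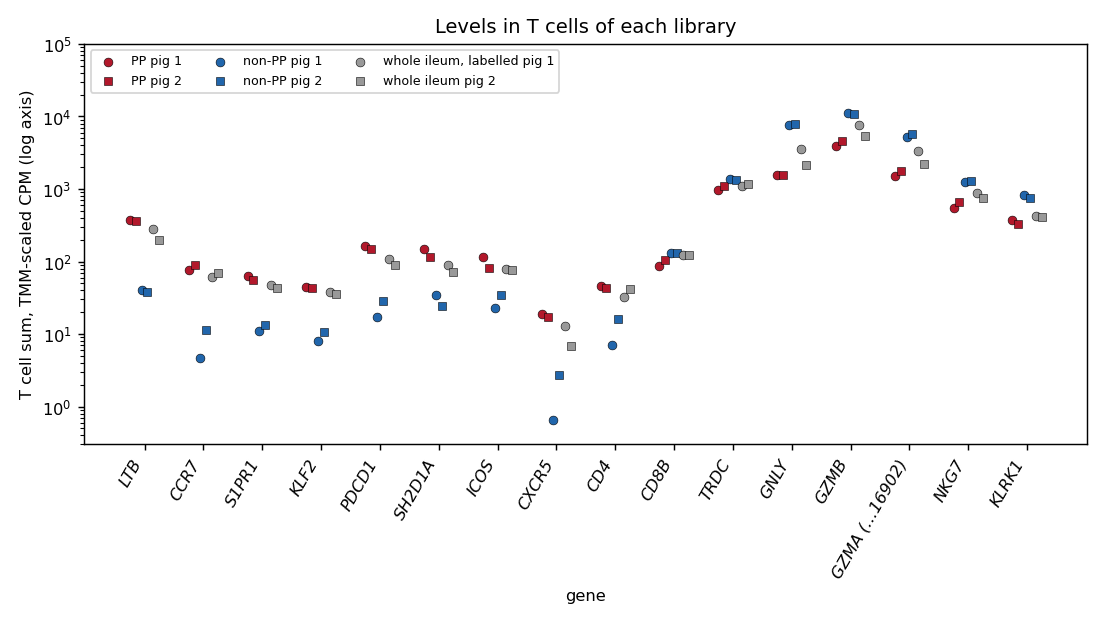
Levels of 16 genes in the T cell sums of 6 libraries, as TMM-scaled CPM on a log axis. Red marks PP, blue non-PP and grey whole ileum, circles libraries labelled pig 1 and squares pig 2. The grey circle is the whole ileum library that held Y-linked RNA despite its label. LTB, CCR7, S1PR1 and PDCD1 lie higher in both PP libraries than in both non-PP libraries, and GNLY, GZMB and GZMA lie lower.

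Genes of follicular helper T cells were higher in PP too. Of 18 members tested, 3 passed, 10 in DESeq2 and 16 with the pig as a block, all higher, and the median log2 fold change was 1.73. PDCD1, which encodes the inhibitory receptor PD-1 that follicular helper cells carry at high density, was at 166 and 149 CPM in PP of pigs 1 and 2 and 17.2 and 28.5 CPM in non-PP (7.005-fold; log2 fold change 2.81 ± 0.26, adjusted p = 0.0319). SH2D1A, the adaptor SAP that T cells need for lasting contact with B cells, was at 147 and 114 CPM in PP against 34.6 and 24.5 CPM in non-PP (log2 fold change 2.17 ± 0.23, adjusted p = 0.0456). POU2AF1, a coactivator that B cells and follicular helper cells use, was at 15.1 and 16.5 CPM in PP against 0.430 and 0.371 CPM in non-PP (log2 fold change 5.26 ± 0.31, adjusted p = 0.0157). POU2AF1 was low in T cells and reached 128 and 88.5 CPM in the ambient RNA of PP, so its source cannot be told apart from B cell RNA by its level. With ambient counts subtracted and no block, PDCD1 (adjusted p = 0.0566), SH2D1A (0.0609) and POU2AF1 (0.199) were no longer called, and with the block as well all 3 were called again.

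In edgeR the other follicular helper genes were called only with the pig as a block or not at all, and DESeq2 without one called MAF, TNFRSF4, CXCR4, CTLA4, ICOS, CXCR5 and CD40LG as well. ICOS, a costimulatory receptor, was at 114 and 81.7 CPM in PP against 23.1 and 34.5 CPM in non-PP (log2 fold change 1.79, adjusted p = 0.0736 without and 8.47e-05 with the block). CXCR5, which draws cells into follicles, was at 18.6 and 17.4 CPM in PP against 0.645 and 2.72 CPM in non-PP (log2 fold change 3.46, adjusted p = 0.0836 without and 8.02e-05 with the block), and B cells carry it as well. CD40LG, the ligand that activates B cells, was at 68.4 and 73.6 CPM in PP against 11.3 and 34.5 CPM in non-PP, and its spread between the pigs was wide in non-PP (log2 fold change 1.66, adjusted p = 0.279 without and 5.79e-04 with the block). MAF, a transcription factor of these cells, was at 64.7 and 50.6 CPM in PP against 19.0 and 24.5 CPM in non-PP, TIGIT, an inhibitory receptor, at 58.4 and 40.1 CPM in PP against 28.7 and 24.8 CPM in non-PP, and CTLA4, another, at 91.6 and 72.9 CPM in PP against 17.1 and 28.8 CPM in non-PP. IL21, the cytokine of this subset, was scarce at 2.81 and 2.14 CPM in PP against 0.323 and 0.741 CPM in non-PP. BCL6, the master regulator of follicular helper cells, was at 32.5 and 28.3 CPM in PP against 27.6 and 26.9 CPM in non-PP and passed in neither fit (adjusted p = 0.748 without and 0.512 with the block).

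The CD4 coreceptor followed the same order, at 46.2 and 42.9 CPM in PP of pigs 1 and 2 and 6.99 and 15.9 CPM in non-PP (log2 fold change 1.99, adjusted p = 0.117 without and 1.93e-04 with the block), and so did the costimulatory receptor CD28, at 75.6 and 45.9 CPM in PP against 17.2 and 18.3 CPM in non-PP (log2 fold change 1.80, adjusted p = 0.0728 without and 4.92e-05 with the block). CD8A and CD8B, the chains of the CD8 coreceptor, were lower in PP with the block: CD8A was at 339 and 369.7 CPM in PP against 566 and 475 CPM in non-PP (log2 fold change -0.53) and CD8B at 87.0 and 105 CPM in PP against 132 and 130.2 CPM in non-PP (-0.43). With ambient counts subtracted and the block neither was called (adjusted p = 0.0584 for CD8A and 0.0563 for CD8B). TRDC, the constant chain of the γδ T cell receptor, was at 959 and 1096 CPM in PP against 1359 and 1349 CPM in non-PP and passed in neither fit. None of the 11 coreceptor and CD3 complex genes passed without the block, where 4 had an unadjusted p below 0.05 and DESeq2 called 2.

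Cytotoxic genes were lower in PP. Of 20 tested, 3 passed and 10 in DESeq2, all lower, and 13 were lower and 2 higher with the pig as a block, with a median of -0.98. GNLY, which encodes the granule protein granulysin, was at 1563 and 1558 CPM in PP of pigs 1 and 2 and 7749 and 7840.0 CPM in non-PP, so that the T cells of PP held 4.91-fold less (log2 fold change -2.30 ± 0.15, adjusted p = 0.0157). GZMB, the protease granzyme B, was at 3899 and 4555 CPM in PP against 11241 and 10984 CPM in non-PP (log2 fold change -1.37 ± 0.16, adjusted p = 0.0483). GZMA, granzyme A, has 2 gene models in the annotation between which near-identical reads could be split: ENSSSCG00000016902 was at 1527 and 1795 CPM in PP against 5288 and 5788 CPM in non-PP (log2 fold change -1.71 ± 0.17, adjusted p = 0.0348) and ENSSSCG00000016903 at 1053 and 992 CPM in PP against 2924 and 2369 CPM in non-PP (log2 fold change -1.35, adjusted p = 0.0619 without and 2.50e-04 with the block). No library of one dissection reached the range of the other for these genes.

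NKG7, a granule membrane protein, was at 542 and 669 CPM in PP against 1265 and 1288 CPM in non-PP (log2 fold change -1.05, adjusted p = 0.0858 without and 6.96e-04 with the block), and PRF1, the pore-forming perforin, at 105 and 149 CPM in PP against 226 and 278 CPM in non-PP (log2 fold change -0.97, adjusted p = 0.177 without and 2.03e-04 with the block). The natural killer receptor KLRK1 (NKG2D) was at 378 and 332 CPM in PP against 833 and 741 CPM in non-PP, and CD244, another receptor of killer cells, at 79.5 and 80.6 CPM in PP against 159 and 206 CPM in non-PP. FCER1G, a signalling adaptor of natural killer and innate-like T cells, was at 307 and 219 CPM in PP against 845 and 593 CPM in non-PP (log2 fold change -1.43, adjusted p = 0.104 without and 3.03e-05 with the block). These genes were lower in both PP libraries than in both non-PP libraries. Against the list, HCST, the adaptor of NKG2D, was higher in PP with the block, at 198 and 166 CPM in PP against 127 and 93.9 CPM in non-PP (log2 fold change 0.75), as was SRGN, a granule proteoglycan. CTSW, a protease of cytotoxic cells, stood at 778 and 637 CPM in PP against 839 and 673 CPM in non-PP, where the dissections overlapped. GNLY reached 2249 and 3024 CPM in the ambient RNA of PP and 10010 and 21932 CPM in that of non-PP, and with ambient counts subtracted and the block its log2 fold change was -2.23. With ambient counts subtracted and no block, GNLY was called (adjusted p = 0.0406), while GZMB (0.0751) and GZMA ENSSSCG00000016902 (0.0511) were not, and with the block as well both were called.

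None of 19 intraepithelial and tissue residence genes passed without the block, where 10 had an unadjusted p below 0.05 and DESeq2 called 2. Of all 9625 genes tested, 1059 had such an unadjusted p. With the block 2 were higher and 6 lower in PP, and the median was -0.38. ITGAE, the integrin CD103 that binds the epithelium, was at 264 and 178 CPM in PP against 467 and 297 CPM in non-PP (log2 fold change -0.77, adjusted p = 0.420 without and 0.00151 with the block), and CD96 was at 99.0 and 75.7 CPM in PP against 215 and 159 CPM in non-PP. CCL5, a chemokine of effector T cells, was the most abundant of the list, at 14706 and 10841 CPM in PP against 28311 and 17757 CPM in non-PP (log2 fold change -0.83, adjusted p = 0.353 without and 0.0473 with the block), with PP of pig 1 close to non-PP of pig 2. CCR9, the small intestinal homing receptor, was at 105 and 113 CPM in PP against 142 and 133 CPM in non-PP and passed in neither fit. CD69, an activation and retention marker, ran against the list at 369.9 and 394 CPM in PP against 189 and 195 CPM in non-PP (log2 fold change 1.02, adjusted p = 0.0645 without and 1.93e-04 with the block).

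Among cytokine genes other than LTB, edgeR without the block called none and DESeq2 called LTA, TNF and IL22. With the block 7 of 10 tested, LTB included, were higher in PP. IL22, a cytokine that acts on epithelium, was at 127 and 78.9 CPM in PP against 53.8 and 35.2 CPM in non-PP (log2 fold change 1.24, adjusted p = 0.212 without and 1.47e-05 with the block). TNF was at 23.0 and 18.0 CPM in PP against 2.15 and 4.45 CPM in non-PP (log2 fold change 2.67, adjusted p = 0.0725 without and 1.15e-04 with the block). IL10, an anti-inflammatory cytokine, was at 64.3 and 98.6 CPM in PP against 30.01 and 60.8 CPM in non-PP, with PP of pig 1 close to non-PP of pig 2. IFNG, the main cytokine of cytotoxic and Th1 cells, overlapped between dissections at 107 and 127 CPM in PP against 109 and 125 CPM in non-PP.

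Among 10 chemoattractant receptors tested, 3 passed, all higher in PP, 5 in DESeq2 and 7 with the block. CCR4, a receptor of activated helper and regulatory T cells, was at 22.2 and 17.4 CPM in PP against 3.33 and 2.84 CPM in non-PP (log2 fold change 2.69 ± 0.26, adjusted p = 0.0324; 0.0751 with ambient counts subtracted), and the other 2 were CCR7 and S1PR1. CXCR4, which guides cells within germinal centres and is carried by B cells too, was at 428 and 379.8 CPM in PP against 168 and 198 CPM in non-PP (log2 fold change 1.17, adjusted p = 0.0660 without and 1.53e-04 with the block). Of 8 regulatory T cell genes, none passed without the block, where 5 had an unadjusted p below 0.05 and DESeq2 called 3. With it 7 were higher. Among these, CTLA4, TNFRSF4 and TNFRSF18 were also counted in the follicular helper list and IL10 among the cytokine genes. FOXP3, the defining factor of regulatory T cells, was at 6.33 and 3.86 CPM in PP against 0.968 and 1.36 CPM in non-PP (log2 fold change 2.16, adjusted p = 0.153 without and 0.00955 with the block), a low level in all 4 libraries.

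DUSP1, a phosphatase induced early in activation, was at 132 and 128 CPM in PP of pigs 1 and 2 and 49.3 and 44.7 CPM in non-PP (log2 fold change 1.49 ± 0.14, adjusted p = 0.0306), the only one of 15 immediate early and heat shock genes that edgeR called without the block, where DESeq2 called 5. DUSP1 was called again with ambient counts subtracted (adjusted p = 0.0406). With the block 7 were higher, and FOS and JUN, parts of the AP-1 factor, were among them, at 314 and 288 CPM in PP against 180.0 and 150.0 CPM in non-PP and 432 and 481 CPM in PP against 245 and 271 CPM in non-PP. None of 18 proliferation genes passed without the block, where 1 had an unadjusted p below 0.05 and DESeq2 called 0, and 4 were higher with it. PCNA, a replication clamp, was at 199 and 166 CPM in PP against 143 and 109 CPM in non-PP (log2 fold change 0.56, adjusted p = 0.357 without and 0.00593 with the block).

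Of 15 lineage transcription factors, none passed without the block, where 5 had an unadjusted p below 0.05 and DESeq2 called 1, and 2 were higher and 3 lower with it. ZBTB16, the factor PLZF of innate-like T cells, was at 8.26 and 6.86 CPM in PP against 18.1 and 21.5 CPM in non-PP (log2 fold change -1.36, adjusted p = 0.0868 without and 0.00156 with the block), and TBX21, the factor T-bet, at 14.6 and 10.1 CPM in PP against 22.3 and 21.4 CPM in non-PP. The 5 MHC class II genes and 59 cytosolic ribosomal protein genes gave no call in edgeR with or without the block or in DESeq2, and none had an unadjusted p below 0.05. All 59 ribosomal genes had positive log2 fold changes, with a median of 0.24.

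**Figure D2:**
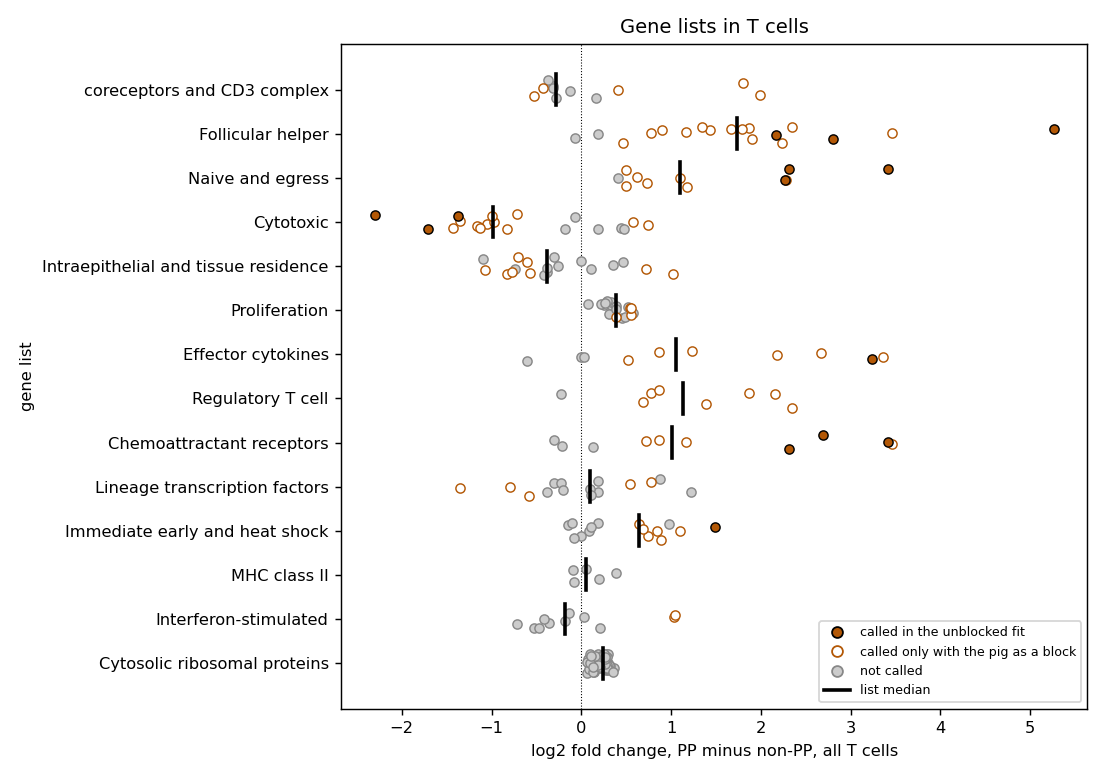
Log2 fold change of PP over non-PP in all T cells for each tested member of 14 gene lists; filled points passed the test without the block, open orange points only with the pig as a block, grey points in neither, and black bars are list medians. The follicular helper and naive lists lie mostly right of 0 (medians 1.73 and 1.10) and the cytotoxic list mostly left (median -0.98).

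Outside the lists, 5 genes met the rule for naming, which asked for at least 20 CPM on average and a call after ambient subtraction. RAE1, an RNA export factor, was at 261 and 262 CPM in PP of pigs 1 and 2 and 35.1 and 48.9 CPM in non-PP (log2 fold change 2.66 ± 0.20, adjusted p = 0.0202). PDK1, a kinase that limits the entry of pyruvate into mitochondria, was at 36.7 and 40.3 CPM in PP against 8.61 and 10.0 CPM in non-PP (log2 fold change 2.07 ± 0.18, adjusted p = 0.0294), and ABI1, an adaptor in actin remodelling, at 53.8 and 45.0 CPM in PP against 13.7 and 11.12 CPM in non-PP (log2 fold change 2.02 ± 0.19, adjusted p = 0.0306). ITGB2, the shared chain of the leukocyte integrins, was at 109 and 86.8 CPM in PP against 23.8 and 24.8 CPM in non-PP (log2 fold change 2.03 ± 0.17, adjusted p = 0.0294). CDH17, a cadherin best known from intestinal epithelium, was lower in PP, at 20.4 and 17.6 CPM in PP against 65.5 and 59.9 CPM in non-PP (log2 fold change -1.70 ± 0.16, adjusted p = 0.0306). CDH17 stood at 47.0 and 20.2 CPM in the ambient RNA of PP and at 91.6 and 84.2 CPM in that of non-PP. It was called again after ambient subtraction, and the part of epithelial RNA in its difference was not tested beyond that.

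By coreceptor, T cells were split into cells with UMIs of only CD4, only CD8B or only TRDC. CD4 T cells made up 11.5% and 8.85% of the T cells of PP in pigs 1 and 2 (196 and 152 cells) and 1.38% and 3.36% of those of non-PP (43 and 84 cells). CD8B T cells were 13.9% and 16.4% in PP and 19.8% and 20.5% in non-PP, and TRDC T cells 24.5% and 26.8% in PP and 34.7% and 34.4% in non-PP. The remaining cells mostly had no UMI of any of the 3 genes, at 48.4% and 46.1% in PP and 40.7% and 38.1% in non-PP. No share overlapped between dissections. With 2 libraries each, an exact permutation test cannot go below p = 0.333, so these shares carry no test.

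The share of T cells with a UMI of a gene was compared after every cell was thinned to the minimum UMI count of the filter. Of 42 genes, 21 had higher shares in both PP libraries (17.5% of the 9625 genes tested did) and 18 lower ones (21.5%), and 3 overlapped, each without a test for the same reason. The 42 genes were taken with their levels known, so their counts above this background are a description. PDCD1 was seen in 15.1% and 12.9% of T cells in PP and in 2.15% and 3.96% in non-PP, against at most 0.881% of B cells (CD79B and MS4A1 present, CD3E absent) in any of the 4 libraries. LTB was seen in 21.9% and 24.6% of T cells of PP, below the 45.5% and 56.4% of B cells there. KLF2 was likewise lower in T cells (5.34% and 4.43%) than in B cells (9.95% and 6.12%) of PP. CCR7 was seen in 7.52% and 8.68% of T cells and 8.19% and 5.24% of B cells of PP. S1PR1 went the other way, at 5.11% and 5.13% of T cells against 1.66% and 0.785% of B cells of PP. NKG7 was seen in 37.5% and 41.5% against 68.6% and 67.5%, with 2.15% and 2.00% of B cells in PP and 2 of 18 and 5 of 48 B cells in non-PP. KLRK1 was seen in 22.4% and 18.7% against 50.7% and 41.6%. GNLY was seen in 16.6% and 18.6% of T cells of PP and 63.5% and 77.7% of those of non-PP. It was also seen in 38.9% and 72.9% of the 18 and 48 B cells of non-PP, whose median counts were 2251 and 4116 UMIs. The share in non-PP of pig 2 was thus close to that of B cells of the same library. GZMB was seen in 27.8% and 60.4% of B cells of non-PP against 10.0% and 12.6% of those of PP. For GZMA (ENSSSCG00000016902) these shares were 16.7% and 37.5% against 4.41% and 5.99%.

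**Figure D3:**
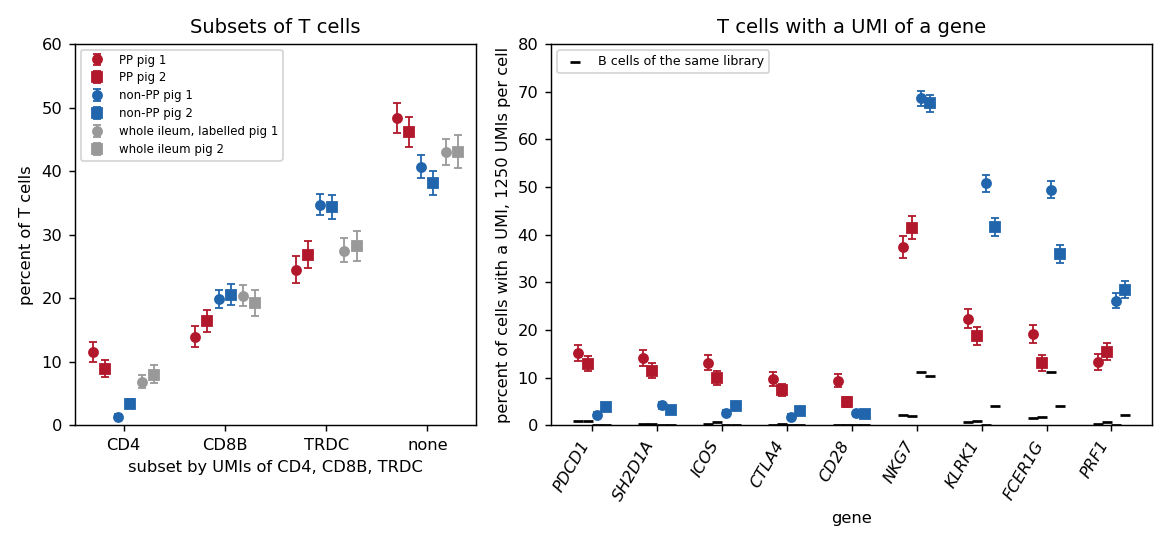
Left, the percent of T cells with UMIs of only CD4, only CD8B, only TRDC or none of them in 6 libraries; right, the percent of T cells with a UMI of 9 genes in equally thinned cells of the 4 compared libraries, with black dashes for B cells of the same library. Bars are 95% exact binomial intervals, which cover counting error only; CD4 T cells reach 11.5% in PP of pig 1 and 1.38% in non-PP of pig 1.

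Within CD4 T cells, 3386 genes were tested, and 31 were higher (0.916%) and 27 lower (0.797%) in PP. With the pig as a block these counts were 85 (2.51%) and 100 (2.95%). They were 17 and 26 without PP of pig 1, 33 and 47 without PP of pig 2, 67 and 115 without non-PP of pig 1, and 53 and 39 without non-PP of pig 2. The non-PP sums came from 43 and 84 cells, and in pig 2 they held 3003 CPM of myeloid markers against 89.5 to 165 CPM in the other 3, with only LYZ at 0; the part of these cells in the result was not tested. The 10 B cell markers were all at 0 in both non-PP sums and summed to 29.8 and 42.3 CPM in PP.

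Cytotoxic genes had lower sums in the CD4 T cells of PP, but for 4 of the 5 genes given here the sums of 3 libraries were close to the ambient estimate or below it. Of 9 tested, 6 passed, all lower, with a median of -2.19 against 0.000903 over all genes tested. GNLY was at 78.4 and 118 CPM in PP of pigs 1 and 2 and 1592 and 886 CPM in non-PP (log2 fold change -3.67 ± 0.35, adjusted p = 3.24e-04), and GZMA (ENSSSCG00000016902) at 94.1 and 66.7 CPM in PP against 776 and 778 CPM in non-PP (log2 fold change -3.25 ± 0.27, adjusted p = 1.02e-04). GZMB was at 232 and 233 CPM in PP against 1192 and 929 CPM in non-PP (log2 fold change -2.19 ± 0.26, adjusted p = 0.00128), NKG7 at 64.2 and 84.6 CPM in PP against 353 and 305 CPM in non-PP (log2 fold change -2.16 ± 0.27, adjusted p = 0.00195) and KLRK1 at 2.85 and 2.56 CPM in PP against 149 and 51.6 CPM in non-PP (log2 fold change -4.89 ± 0.75, adjusted p = 0.00760). The dissections did not overlap for any of them. GNLY, GZMA, GZMB and KLRK1 were not tested after ambient subtraction, because they no longer passed the filter on low counts. In the CD4 sums of PP of pigs 1 and 2 and of non-PP of pigs 1 and 2, GNLY had 55, 46, 203 and 206 UMIs against an ambient estimate of 152, 67.7, 81.8 and 454. In the same order GZMB had 163, 91, 152 and 216 UMIs against an ambient estimate of 161, 81.5, 58.5 and 331, GZMA had 66, 26, 99 and 181 UMIs against an ambient estimate of 68.5, 38.6, 25.8 and 207, and KLRK1 had 2, 1, 19 and 12 UMIs against an ambient estimate of 13.6, 6.36, 4.99 and 20.3. Only in non-PP of pig 1, with 43 cells, were these 4 genes clearly above the ambient estimate. Their levels in CD4 T cells cannot be told apart from free RNA in the other 3 libraries. Where a sum lay well below the estimate, as for GNLY in PP of pig 1, the estimate was too high for that gene. Subtraction there took away more than free RNA could have given. NKG7 was above the estimate in all 4 (45, 33, 45 and 71 UMIs against an ambient estimate of 25.7, 6.79, 5.86 and 25.4) and was called after ambient subtraction (adjusted p = 0.0380).

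IL12RB2, a receptor chain for the Th1 cytokine IL-12, was at 4.28 and 2.56 CPM in PP of pigs 1 and 2 and 86.3 and 51.6 CPM in non-PP (log2 fold change -4.05 ± 0.66, adjusted p = 0.0107). ABCB1, an efflux pump, was at 11.4 and 10.3 CPM in PP against 118 and 98.9 CPM in non-PP (log2 fold change -3.24 ± 0.44, adjusted p = 0.00358), and GPR171, an inhibitory receptor, at 32.8 and 35.9 CPM in PP against 133 and 133 CPM in non-PP (log2 fold change -1.96 ± 0.34, adjusted p = 0.0135). C15orf48 was at 167 and 79.5 CPM in PP against 604 and 533 CPM in non-PP (log2 fold change -2.16 ± 0.32, adjusted p = 0.00544). These 4 were lower in PP in both pigs, as was NKG7, and the call was made again after ambient subtraction.

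LTB was higher in the CD4 T cells of PP, at 722 and 954 CPM in PP of pigs 1 and 2 and 54.9 and 60.2 CPM in non-PP (log2 fold change 3.84 ± 0.31, adjusted p = 1.02e-04), and SH2D1A was at 355 and 297 CPM in PP against 94.1 and 68.8 CPM in non-PP (log2 fold change 2.04 ± 0.29, adjusted p = 0.00418). PDCD1 was at 486 and 446 CPM in PP against 125 and 202 CPM in non-PP (log2 fold change 1.46 ± 0.27, adjusted p = 0.0224), and of 13 follicular helper genes tested 3 passed, all higher. CXCR5 had 53 and 15 UMIs in PP and 0 in non-PP. With the pigs pooled, it was at 63.3 CPM in PP, 7.90-fold a floor of 3 counts over the non-PP group. GPX3, an extracellular glutathione peroxidase, had 35 and 21 UMIs against 0. Its pooled level in PP was 6.51-fold the same floor. Both folds cover counting error only and do not hold for each pig alone. ICOS was at 298 and 200.02 CPM in PP against 188 and 206 CPM in non-PP and overlapped between dissections.

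FOS was at 429 and 623 CPM in PP of pigs 1 and 2 and 133 and 77.4 CPM in non-PP in CD4 T cells (log2 fold change 2.37 ± 0.33, adjusted p = 0.00358), JUN at 578 and 818 CPM in PP against 180.4 and 271 CPM in non-PP (log2 fold change 1.59 ± 0.29, adjusted p = 0.0209), and 4 of 13 immediate early and heat shock genes passed, all higher in PP. GSPT2, a translation termination factor, was at 101 and 113 CPM in PP against 23.5 and 17.2 CPM in non-PP (log2 fold change 2.42 ± 0.44, adjusted p = 0.0209). The naive genes did not pass: CCR7 was at 145 and 174 CPM in PP against 15.7 and 68.8 CPM in non-PP (log2 fold change 1.71, adjusted p = 0.0868 without and 3.92e-04 with the block), and S1PR1 at 109.8 and 138 CPM in PP against 86.3 and 90.3 CPM in non-PP. The CCR7 call needed the pig as a block.

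In CD8B T cells no gene of 6861 passed in edgeR in either direction (0.0% and 0.0%), where 77 were higher and 118 lower at an unadjusted p below 0.05 and DESeq2 called 6 and 2. With the pig as a block 52 were higher (0.758%) and 72 lower (1.05%). In TRDC T cells none of 7891 passed (0.0% and 0.0%), with 221 and 219 at an unadjusted p below 0.05 and 11 and 6 in DESeq2, and 152 (1.93%) and 150 (1.9%) were called with the block. Leaving out a library gave 9 to 26 higher and 18 to 39 lower genes in CD8B T cells, and 0 to 11 in each direction in TRDC T cells. All calls named below for these subsets were made with the block. That fit took out the difference between the pigs and left few libraries to estimate the remaining spread. Its very small adjusted p-values rest on how far the difference between dissections varied between only 2 pigs. They do not measure variation among animals beyond these.

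Among CD8B T cells, 6 of 8 naive genes tested were higher in PP with the block, with a median of 1.98. CCR7 was at 24.7 and 68.6 CPM in PP of pigs 1 and 2 and 1.33 and 2.20 CPM in non-PP (log2 fold change 4.67, adjusted p = 0.177 without and 1.47e-24 with the block), S1PR1 at 35.6 and 33.7 CPM in PP against 3.55 and 7.69 CPM in non-PP (log2 fold change 2.65, adjusted p = 0.258 without and 8.28e-11 with the block), and LEF1 at 17.8 and 27.9 CPM in PP against 2.22 and 3.30 CPM in non-PP (log2 fold change 3.02, adjusted p = 0.285 without and 1.13e-07 with the block). LTB was at 111 and 151 CPM in PP against 17.3 and 31.9 CPM in non-PP (log2 fold change 2.42, adjusted p = 0.177 without and 4.49e-44 with the block). These values were higher in both PP sums. GNLY was at 1824 and 1173 CPM in PP against 3951 and 3762 CPM in non-PP (log2 fold change -1.36, adjusted p = 0.354 without and 9.76e-12 with the block), and 8 of 19 cytotoxic genes were lower and 2 higher with the block. GZMB stood at 7622 and 8212 CPM in PP against 10784 and 11155 CPM in non-PP and was not called in either fit.

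Among TRDC T cells, 6 of 10 naive genes were higher with the block (median 1.07) and 10 of 20 cytotoxic genes lower and 1 higher (median -0.58). LTB was at 167 and 161 CPM in PP of pigs 1 and 2 and 49.1 and 38.2 CPM in non-PP (log2 fold change 1.92, adjusted p = 0.1201 without and 1.22e-12 with the block), CCR7 at 37.3 and 57.1 CPM in PP against 3.05 and 9.73 CPM in non-PP (log2 fold change 2.90, adjusted p = 0.382 without and 4.96e-10 with the block), and PDCD1 at 40.1 and 46.8 CPM in PP against 11.3 and 17.8 CPM in non-PP (log2 fold change 1.59, adjusted p = 0.382 without and 1.59e-05 with the block). GNLY was at 1571 and 2296 CPM in PP against 6942 and 8205 CPM in non-PP (log2 fold change -1.96, adjusted p = 0.169 without and 1.96e-08 with the block) and GZMB at 3359 and 3544 CPM in PP against 9499 and 9141 CPM in non-PP (log2 fold change -1.42, adjusted p = 0.1201 without and 2.13e-05 with the block). In these 5 genes both PP sums lay on one side of both non-PP sums.

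**Figure D4:**
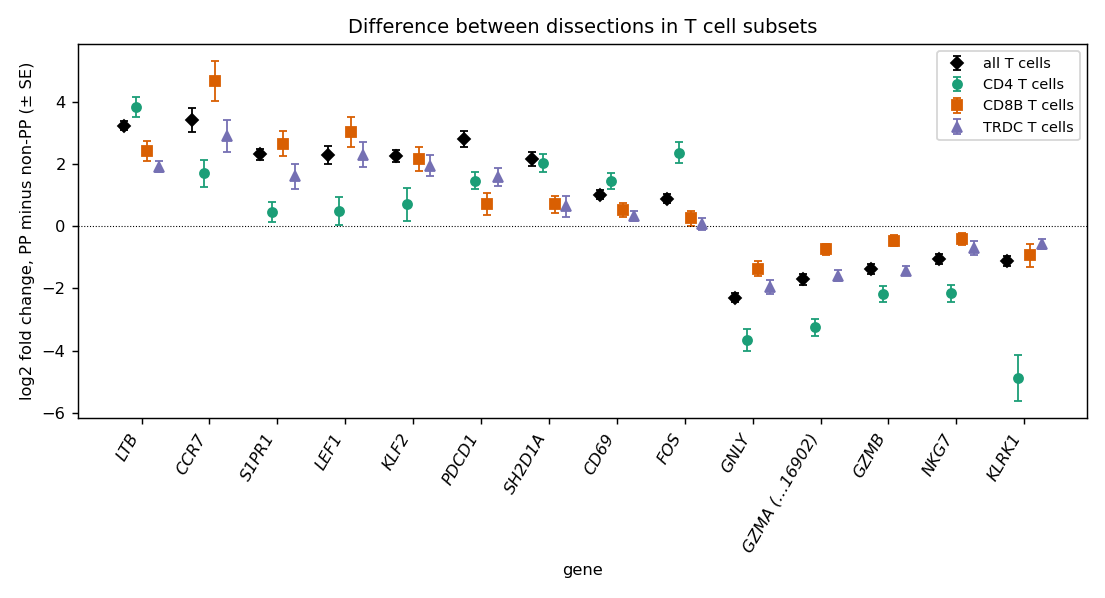
Log2 fold change of PP over non-PP with its standard error from the fits without a block, for 14 genes in all T cells and in CD4, CD8B and TRDC T cells. LTB is above 0 in all 4 (3.24, 3.84, 2.42 and 1.92) and GNLY below 0 (-2.30, -3.67, -1.36 and -1.96), while FOS reaches 2.37 in CD4 T cells and lies near 0 in TRDC T cells.

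Whether the effect of the dissection differed between subsets was tested in 1 fit of 12 sums over 7422 genes. The PP effect was above that of CD4 T cells for 56 genes in CD8B T cells (0.755%) and below it for 32 (0.431%); in TRDC T cells it was above for 97 (1.31%) and below for 37 (0.499%). With the pig as a block the 2 subset tests called 39 and 82 genes, and without non-PP of pig 2 they called 49 and 65. Without PP of pig 1 the TRDC test called 89. The drop of NKG7 in PP was larger in CD4 T cells than in CD8B T cells (difference of log2 fold changes 1.70 ± 0.25, adjusted p = 7.75e-05) and than in TRDC T cells (1.37 ± 0.24, adjusted p = 8.92e-04), and both were called after ambient subtraction (0.00174 and 0.00670). For GNLY, whose CD4 sums exceeded the ambient estimate in only 1 of 4 libraries, the differences were 2.26 ± 0.32 (adjusted p = 6.18e-05) and 1.63 ± 0.32 (adjusted p = 0.00268). After ambient subtraction the adjusted p for GNLY were 0.0379 and 0.107, the second no longer called. The rise of FOS was larger in CD4 T cells, with differences of -2.13 ± 0.35 and -2.34 ± 0.33 (adjusted p = 5.28e-04 and 4.31e-05). For LTB it was larger than in TRDC T cells (-1.97 ± 0.36, adjusted p = 0.00124), and the difference from CD8B T cells did not pass (-1.44 ± 0.41, adjusted p = 0.0848). The S1PR1 effect was larger in CD8B than in CD4 T cells (2.18 ± 0.51, adjusted p = 0.0206; 0.0730 with the block).

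The pigs also differed from each other in ways that crossed the dissections. All 11 interferon-stimulated genes tested were higher in pig 2 in both dissections, with median folds of 2.15 in PP and 3.34 in non-PP, and each pig is 1 animal, so that no test of this was made. The share of all genes that were higher in pig 2 in both dissections was not counted. Over all genes tested, deviations of same-pig libraries from their dissection means correlated at 0.569. The count of 11 is thus a description and not a trait shown to be particular to these genes. IFI6, an interferon-induced mitochondrial protein, was at 1457 and 4412 CPM in PP of pigs 1 and 2 and at 1741 and 6258 CPM in non-PP. The chaperone gene HSP90AA1 followed the pigs too, at 979 and 3168 CPM in PP and 870.4 and 3674 CPM in non-PP. By its labels the first animal was female and the second male, so sex and animal cannot be told apart. None of the 11 passed between dissections without the block, where none had an unadjusted p below 0.05 and DESeq2 called 0, and with it ISG20 and IRF7 were higher in PP.

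**Figure D5:**
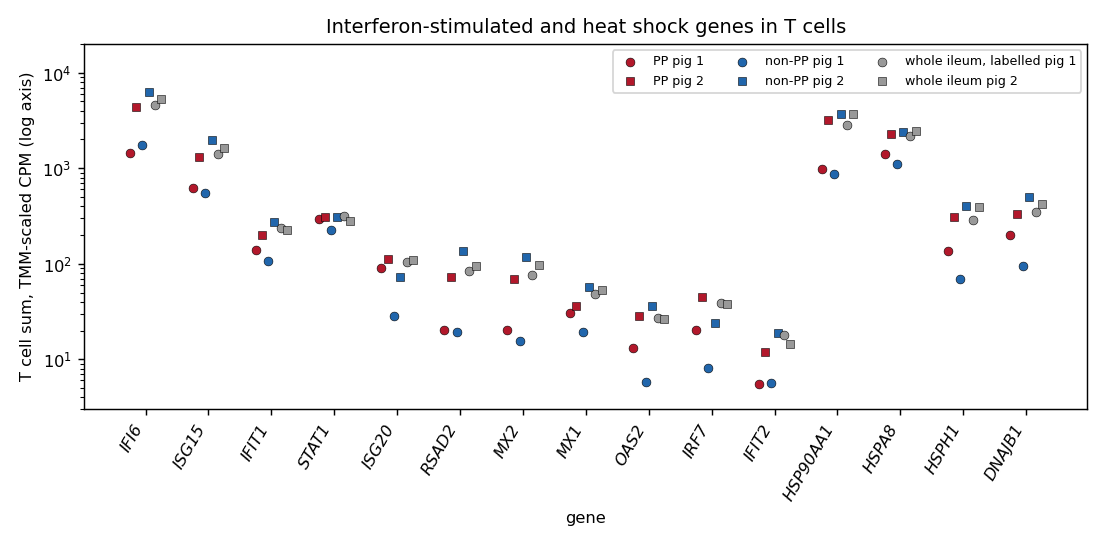
Levels of 11 interferon-stimulated and 4 heat shock genes in the T cell sums, as TMM-scaled CPM on a log axis. Circles mark libraries labelled pig 1, squares pig 2, red PP, blue non-PP and grey whole ileum. The grey circle is the whole ileum library that held Y-linked RNA despite its label of pig 1, with IFI6 at 4549 CPM. Squares lie above circles for all 15 genes in PP and in non-PP, as for IFI6 at 1457 and 4412 CPM in PP.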

How the data were processed

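Six-library single-cell RNA sequencing of the porcine ileum was used in its PP and non-PP libraries, and whole ileum served for levels and 1 alternative. The authors aligned reads to Sus scrofa 11.1 with a modified Ensembl annotation and counted UMIs per gene and barcode with Cell Ranger (version 4.0.6 in the submitters' processing notes); the deposited values are raw UMI counts for all barcodes, before the authors removed ambient RNA, poor cells and doublets. Of 25880 genes, 17733 were named in the matrices, 977 through the gene name table and 11 through the study's own table of names, and 7159 had no name.

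Cells were filtered here as stated in the report, and counts were summed per library and subset. Depth and UMIs per cell stand in the report; binomial and count intervals cover counting error only. Sums were tested with edgeR 4.0.16 (TMM, filterByExpr, glmQLFit, glmQLFTest, no block, R 4.3.3), with Benjamini-Hochberg adjustment over all genes tested and calls below 0.05; the standard error is the log2 fold change divided by the root of F. The difference between subsets was fitted with the library as a term, and with the pig in its place for the block. Replicate numbers 1 and 2 are the 2 pigs, so they pair libraries: deviations of same-pig libraries from their dissection means correlated at 0.569 over 9625 genes. Alternatives were the pig block, DESeq2 1.42.0, no filter on low counts, DESeq2 size factors, subtraction of ambient counts (profile of barcodes with 10 to 50 UMIs), removal of doublets scored by scanpy 1.11.5 (no removal in the main sums; 12 to 120 T cells per library), a stricter T cell rule (CD3D or CD3G also present and all B cell and epithelial markers at 0), thinning to the minimum UMI count of the filter and leaving out each library. Scripts were tested on simulated data.

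Named genes were the 15 (5 in subsets and subset differences) with the largest change in each direction that were called, averaged at least 20 CPM, did not overlap between dissections and were called again after ambient subtraction, plus members of the T cell lists; genes without a symbol, Y-linked and immunoglobulin genes and markers of other cell types were left out. CD3E, CD79B, MS4A1, EPCAM, JCHAIN and mitochondrial genes chose the cells and have no result. Some genes of the lists are not reported here. The T cells and the lists were chosen with earlier results of these data known.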

Additional observations from a re-analysis of the deposited data

Results flagged for a closer look

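The difference between dissections itself differed between T cell subsets, by the edgeR fit of 12 sums, for the genes named here by rule, and values below are differences of log2 fold changes of PP over non-PP with the adjusted p in brackets. No other kind of flag was met.

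Above the effect in CD4 T cells lay, in CD8B T cells, IL26 at 4.10 (4.68e-05), SLAMF7 at 3.70 (0.00951), CCL4 (ENSSSCG00000038096) at 3.09 (0.00490), ABCB1 at 2.92 (6.75e-05) and PDE3B at 2.57 (0.0330). In TRDC T cells these were SLAMF7 at 4.33 (0.00118), IL26 at 4.25 (8.09e-06), TYROBP at 3.68 (9.29e-04), CCL4 at 3.30 (0.00179) and ABCB1 at 2.67 (1.54e-04). SLAMF7, a receptor of cytotoxic and plasma cells, was at 1.43 and 7.69 against 47.1 and 55.9 CPM in PP and non-PP of CD4 T cells and at 36.6 and 62.8 against 48.4 and 53.8 CPM in CD8B T cells. ABCB1 was at 11.4 and 10.3 against 118 and 98.9 CPM in CD4 T cells and at 93.0 and 79.1 against 111 and 107 CPM in CD8B T cells, and its difference stayed at 2.82 to 3.00 when each library was left out in turn. IL26, a cytokine gene, was at 17.1 and 2.56 against 267 and 8.60 CPM in CD4 T cells, so its value rested on non-PP of pig 1, and without that library it was 1.45 in CD8B and 2.03 in TRDC T cells. TYROBP, an adaptor of natural killer and myeloid cells, was at 4.28 and 2.56 against 15.7 and 73.1 CPM in CD4 T cells, where non-PP of pig 2 held 3003 CPM of myeloid markers.

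Below the effect in CD4 T cells lay, in CD8B T cells, KRR1 at -2.75 (0.00101), GSPT2 at -2.40 (0.0165), ATF3 at -2.26 (0.0118), C1orf21 at -2.23 (0.00469) and DHRS3 at -2.23 (0.00500). In TRDC T cells these were ICA1 at -3.30 (0.0164), INPP1 at -3.18 (0.0322), ID3 at -2.97 (0.00117), GSPT2 at -2.62 (0.00152) and KRR1 at -2.45 (0.00213). ATF3, a stress-induced transcription factor, was at 81.3 and 128 against 15.7 and 21.5 CPM in CD4 T cells and at 28.7 and 43.0 against 23.1 and 36.8 CPM in CD8B T cells. ID3, an inhibitor of E proteins that B cells and T cells use, was at 72.7 and 97.4 against 7.84 and 12.9 CPM in CD4 T cells and at 47.1 and 95.9 against 61.0 and 71.8 CPM in TRDC T cells. KRR1, a ribosome assembly factor, was at 78.4 and 84.6 against 15.7 and 17.2 CPM in CD4 T cells and at 48.5 and 61.6 against 59.5 and 79.7 CPM in CD8B T cells. With the pig as a block, 6 of these 20 values were not called: CCL4 in both subsets (adjusted p = 0.159 and 0.0963), PDE3B (0.1204), TYROBP (0.116), ICA1 (0.05004) and INPP1 (0.0791). The CD4 sums of non-PP held 43 and 84 cells, and the part of that depth in these values was not tested.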

How the results depend on the processing

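Counts are given as genes higher and lower in PP. All T cells gave 29 and 7; DESeq2 gave 132 and 84, no filter on low counts 204 and 153, the pig as a block 492 and 447, ambient subtraction 7 and 4, thinned cells 62 and 23, the fit with whole ileum 110 and 63, and the stricter T cell rule 32 and 13. Alternatives chosen after seeing the data were the block with ambient subtraction (323 and 255), with thinned cells (443 and 443), with doublets removed (576 and 533) and with the stricter rule (520 and 467). Of the 36 genes, 36 were called again in DESeq2 and with the block, 31 with the block and ambient subtraction (5 not tested), 10 with ambient subtraction alone and 0 without either PP library; no sign turned. Leaving out a library gave 0 to 146 higher and 0 to 120 lower. The lone library of an arm is then assumed to vary like the others, and the fits without PP libraries, which called no gene, tested 10226 and 10295 genes.

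CD4 T cells gave 31 and 27, and 12 and 15 in DESeq2, 66 and 76 without the filter, 85 and 100 with the block, 11 and 13 with ambient subtraction, 33 and 43 with both, and 17 to 67 and 26 to 115 with a library left out. CD8B T cells gave 0 and 0, and 6 and 2 in DESeq2, 28 and 59 without the filter, 52 and 72 with the block, 0 and 0 with ambient subtraction, 11 and 16 with both, and 9 to 26 and 18 to 39 with a library left out. TRDC T cells gave, in the same order, 0 and 0, 11 and 6, 56 and 33, 152 and 150, 0 and 0, 87 and 83, and 0 to 11 and 0 to 11. The subset differences gave 88 and 134 genes, 39 and 82 with the block, 112 and 158 without the filter, 66 and 90 with ambient subtraction (chosen after seeing the data), and 49 to 101 and 65 to 135 with a library left out. DESeq2 size factors in edgeR gave the same 29 and 7, and doublet removal 22 and 5. Shares did not overlap for 39 of 42 genes, for 40 unthinned, 38 without doublets and 36 under the stricter rule. Among the genes named with a value, the pig block ended no call other than those given beside the results. The cause of these changes was not tested. Depth was lowest in the CD4 sums of non-PP, with 131562 and 242781 UMIs.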

Other observations

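Genes outside the lists were chosen here after their values were seen; each was called with the pig as a block and again with ambient counts subtracted and the block. Lower in the T cells of PP were ADGRG1, an adhesion receptor of cytotoxic lymphocytes, at 77.5 and 33.7 CPM in PP of pigs 1 and 2 and 308 and 155 CPM in non-PP (log2 fold change -2.03, adjusted p = 0.199 without and 6.74e-07 with the block), and ENTPD1, the ectonucleotidase CD39, at 29.7 and 39.0 CPM in PP against 68.4 and 106 CPM in non-PP (log2 fold change -1.32, adjusted p = 0.136 without and 2.30e-05 with the block). BATF3, a transcription factor, was at 55.6 and 88.8 CPM in PP against 152 and 202 CPM in non-PP (log2 fold change -1.27, adjusted p = 0.158 without and 2.47e-05 with the block), and CD200R1, an inhibitory receptor, at 41.0 and 32.8 CPM in PP against 96.4 and 98.2 CPM in non-PP (log2 fold change -1.37, adjusted p = 0.0505 without and 1.80e-05 with the block). In all 4 genes both non-PP libraries lay above both PP libraries, and for ADGRG1 and BATF3 the pigs differed within a dissection.

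Higher in PP were IL6R, a receptor chain for interleukin 6, at 52.2 and 60.04 CPM in PP of pigs 1 and 2 and 9.79 and 18.7 CPM in non-PP (log2 fold change 2.01, adjusted p = 0.0775 without and 1.47e-05 with the block), and HIF1A, the oxygen-sensing transcription factor, at 112 and 87.3 CPM in PP against 34.5 and 33.4 CPM in non-PP (log2 fold change 1.58 ± 0.17, adjusted p = 0.0456 without the block, 0.0751 with ambient subtraction alone). DDIT4, which responds to low oxygen and restrains mTOR, was at 166 and 179 CPM in PP against 51.1 and 86.4 CPM in non-PP (log2 fold change 1.35, adjusted p = 0.123 without and 7.25e-05 with the block), while EGLN3, another gene of the oxygen response, was lower in PP at 45.2 and 40.3 CPM in PP against 88.9 and 96.6 CPM in non-PP (log2 fold change -1.09, adjusted p = 0.0619 without and 8.13e-05 with the block). LGMN, a lysosomal protease, was at 167 and 142 CPM in PP against 21.9 and 35.5 CPM in non-PP (log2 fold change 2.45 ± 0.26, adjusted p = 0.0445 without the block, 0.0716 with ambient subtraction alone). The cell source of these RNAs was not tested beyond the ambient subtraction.

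The other genes lower in PP without the block were MGP at 0.176 and 0.643 CPM in PP against 17.6 and 15.2 CPM in non-PP, CCL21 at 5.27 and 5.79 CPM in PP against 20.5 and 23.1 CPM in non-PP and RASGEF1A at 17.8 and 18.9 CPM in PP against 45.5 and 43.3 CPM in non-PP. MGP and CCL21 are best known from stromal and lymphatic cells, and their levels in T cell sums were low in all 4 libraries. Among the genes higher in PP, ZNF70 was at 41.5 and 45.9 CPM in PP against 0.968 and 1.11 CPM in non-PP. ELL3 was at 11.08 and 10.9 CPM in PP against 0.108 and 0.371 CPM in non-PP. FADS3 was at 19.2 and 22.1 CPM in PP against 1.18 and 1.36 CPM in non-PP. None of these 3 reached 50 CPM in any library. With ambient counts subtracted and no block, ZNF70 and RASGEF1A were not among the genes called. That setting called only 7 genes higher in PP, with LTB, RAE1, PDK1, ITGB2, ABI1 and DUSP1 among them. ELL3 and FADS3 were therefore not both called.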
